A study of Homo sapiens with 3 samples.

Results

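The mitochondrial ribosomal protein genes were followed in 22RV1 cells, a human prostate carcinoma line that expresses the secreted trypsin inhibitor SPINK1, after silencing of SPINK1 with 3 short hairpins. The family was chosen with earlier results of these data known, and its members were picked by name alone. A gene was a member when its symbol on the array was MRPL or MRPS with a number and, in some cases, A, B or C. This rule gave 77 genes, 48 named for the large subunit and 29 for the small subunit, carried by 95 of 58201 gene probes. The cells with each hairpin (hairpins 1, 2 and 3, for shSPINK1-1 to shSPINK1-3) were measured on a two-color Agilent array of their own, with the shSPINK1 RNA in Cy5 and, in Cy3, RNA of 22RV1-shSCRM, the same line with a scrambled hairpin. Hairpins were delivered by lentivirus and the transduced cells were kept in puromycin. Each hairpin has 1 array, so the 3 arrays are replicates of the knockdown and not of any single hairpin, and nothing in the sources used here says whether the shSCRM RNA of the 3 arrays came from separate cultures. The p-values therefore rest on the spread among 3 arrays, in which hairpin and array cannot be told apart. The main test also draws the spread of each gene toward that of all genes, so its p-values do not follow from a gene's own SD alone. Whether the p-values take in any spread among control cultures is not known.

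Mitochondria make a small set of respiratory chain proteins on ribosomes of their own, whose RNA is encoded by mitochondrial DNA and whose proteins are encoded in the nucleus, made in the cytosol and imported. The small subunit (MRPS genes) binds the mRNA and the large subunit (MRPL genes) forms peptide bonds. Many of these proteins descend from bacterial ribosomal proteins, and the others were added to the ribosome in the mitochondrial lineage. The genes are expressed in nearly all cell types, prostate epithelium included. Their names do not always give their place: MRPS18A and MRPS30 are built into the large subunit, and MRPS36, which RefSeq now names KGD4, is a subunit of the oxoglutarate dehydrogenase complex.

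The log2 ratio of shSPINK1 over shSCRM was computed from the scanner brightness after background correction and loess normalization, and the mean over 3 arrays was tested against 0 with limma over 17061 genes, with Benjamini-Hochberg adjustment. Each gene was read from its brightest probe. SPINK1 itself had log2 ratios of -3.71, -3.65 and -3.89 for hairpins 1, 2 and 3, so all 3 arrays went the way of their labels. Between 41.3% and 46.8% of gene spots were well above background in Cy5 and between 38.8% and 42.6% in Cy3, with the highest value of each channel on the array of hairpin 1. All 10 luminal prostate markers were well above background, as were 3 of 6 fibroblast, 2 of 3 leukocyte and 2 of 3 endothelial markers. Luminal markers that changed included KRT8, STEAP2 and EPCAM, which fell, and KRT18, which rose, while no marker of the other cell types passed the test. A fall in RNA per cell and a fall in the number of cells that make it cannot be told apart in such bulk RNA. Dyes were not swapped on any array, and so what the dye and what the hairpin did to a gene's ratio cannot be told apart.

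The probes of the 5 members that passed the test, and both probes of MRPS5, whose probes disagreed, show which stretch of each transcript was read. They are given in the sense of the transcript, with the coordinates of the array's annotation (hg19). For probes that may lie in untranslated sequence the first 30 of 60 bases are given. The array's annotation assigns each to a RefSeq transcript; whether the stretch is coding was not settled here beyond its reading frames.
MRPS9 (chr2:105716308-105716367, plus strand): gggcagtactgtcagaaatttctttgagct
MRPS25 (chr3:15090125-15090184, minus strand): ggcagcagcatttgagtccatgaatgctat
MRPL49 (chr11:64894551-64894610, plus strand): gcactgaactctgggctgcttctctgtgtg
MRPL22 (chr5:154346304-154346363, plus strand): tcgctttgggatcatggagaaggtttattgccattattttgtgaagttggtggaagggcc
MRPL52 (chr14:23303471-23303530, plus strand): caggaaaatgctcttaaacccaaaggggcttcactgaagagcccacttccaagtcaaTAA
MRPS5, brightest probe (chr2:95752972-95753031, minus strand): gggatgttaccttgccttttgtttgttttg
MRPS5, second probe (chr2:95770412-95770471, minus strand): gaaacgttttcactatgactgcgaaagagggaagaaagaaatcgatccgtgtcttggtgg
The capitals in the MRPL52 probe mark a stop codon that closes its 1 frame without an earlier stop. The MRPL22 probe has 2 such frames open throughout.

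All 77 members passed the filter, and each was well above background in Cy5 and in Cy3 on every array. Expression was changed little: 2 members fell (2.6%), MRPL49 and MRPL52, and 3 rose (3.9%), MRPL22, MRPS25 and MRPS9, by limma at an adjusted p under 0.05. Over all genes tested 8.72% fell and 4.77% rose by the same criterion, so the members' shares were below and close to the background. The other 72 members did not pass. None of the 5 went beyond 0.5 on the log2 scale, a size that 0.393% of all genes passed downward and 0.334% upward. At an unadjusted p under 0.05 there were 24 members (31.2%), against 29.8% of all genes.

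MRPS9, a homologue of a bacterial protein at the head of the small subunit, had the highest mean of all members. Its log2 ratios were 0.36, 0.40 and 0.33 for hairpins 1, 2 and 3, a mean of 0.36 (SD 0.037, n = 3) or 1.29-fold, with an adjusted p of 0.00814 by limma. The 3 arrays lay close together and all above 0. Its brightness before normalization was 2680, 2140 and 2170 in Cy5 and 2670, 2290 and 2540 in Cy3. Cy3 was the brighter channel over the arrays as a whole (median gene spot 32 to 38.2, against 17.7 to 24.2 in Cy5). MRPS25, a small-subunit protein without a bacterial counterpart, was much dimmer, between 266 and 328 in Cy5. Its log2 ratios were 0.39, 0.24 and 0.35, a mean of 0.32 (SD 0.074, n = 3) or 1.25-fold (limma, adjusted p = 0.0128). The lowest of these values, that of hairpin 2, lay above the mean of every other member except MRPS9.

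MRPL22, a homologue of the bacterial protein that lines the exit tunnel for the nascent chain, was the single large-subunit member that rose. The ratios were 0.22, 0.28 and 0.20, a mean of 0.23 (SD 0.041, n = 3) or 1.17-fold (limma, adjusted p = 0.0265). Its probe is printed 10 times on the array, which gives a reading of the technical spread. The 10 spots ranged from 0.14 to 0.28 for hairpin 1, from 0.15 to 0.33 for hairpin 2 and from 0.091 to 0.27 for hairpin 3, so no spot lay below 0. The spots of 1 array differed by more than the means of the 3 arrays did.

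MRPL49 and MRPL52, both large-subunit proteins of the mitochondrial lineage, were the members that fell. The log2 ratios of MRPL49 were -0.21, -0.62 and -0.42, a mean of -0.42 (SD 0.204, n = 3) or 0.749-fold (limma, adjusted p = 0.0183). The hairpins differed in size but not in direction, and the value of hairpin 2 was the 1 value beyond 0.5 in either direction that any member had on any array. Over all genes 1.04%, 0.955% and 0.703% were below -0.5 on the arrays of hairpins 1, 2 and 3, and 0.58%, 1.18% and 0.821% were above 0.5. Its Cy5 brightness was 1870, 1010 and 1280 against 2800, 2250 and 2540 in Cy3. MRPL52 was narrower, at -0.14, -0.23 and -0.21, a mean of -0.19 (SD 0.049, n = 3) or 0.876-fold (limma, adjusted p = 0.0478), just inside the threshold. Its second probe gave -0.12, -0.31 and -0.17, a mean of -0.20. MRPL30, a homologue of a bacterial large-subunit protein, had the same mean as MRPL52 with -0.17, -0.26 and -0.14 and lay just outside the threshold (limma, adjusted p = 0.0518).

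The calls were compared under other corrections of the same arrays. On the array files' own log ratio from Agilent's Feature Extraction, which uses another background and dye correction, no member passed limma's test (12 members at an unadjusted p under 0.05) and 3 of all 17061 genes did, while the means of the 5 genes kept their direction (MRPS9 0.39, MRPS25 0.40, MRPL22 0.27, MRPL49 -0.34, MRPL52 -0.17). With each array centred on its median in place of loess, the median of all tested genes moved to -0.23, 60.6% of them fell and 0.533% rose, and 61 members fell and none rose. The means of the 5 genes were then 0.017 for MRPS9 (limma, adjusted p = 0.826), -0.0045 for MRPS25, -0.12 for MRPL22, -0.77 for MRPL49 and -0.54 for MRPL52. The ratios of the 3 genes that rose after loess were therefore near or below 0 on that scale, though above the median of all genes. Relative to genes of equal brightness, the means of the 5 genes under that centring were 0.38 for MRPS9, 0.36 for MRPS25, 0.26 for MRPL22, -0.38 for MRPL49 and -0.16 for MRPL52, each within 0.01 of its value after loess.

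Members that did not pass the test lay on both sides of 0. The 72 had means from -0.19 to 0.20 with a median of 0.040, against a median of -0.011 over all genes tested. The lowest large-subunit members after those above were MRPL33, with -0.049, -0.22 and -0.28, and MRPL23, at the rim of the exit tunnel, with 0.037, -0.26 and -0.24. In both, hairpin 1 stood near 0 and the other hairpins lay below it. The highest large-subunit members after MRPL22 were MRPL48, with 0.12, 0.32 and 0.16, MRPL43, with 0.34, 0.085 and 0.14, MRPL20, with 0.20, 0.15 and 0.14, and MRPL21, with 0.25, 0.12 and 0.072. All of these values were above 0, with adjusted p from 0.0640 for MRPL48 to 0.128 for MRPL21 by limma.

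The lowest small-subunit members by name were MRPS30, with -0.0045, -0.19 and -0.28, MRPS12, a protein of the decoding center, with 0.10, -0.26 and -0.30, and MRPS2, with 0.052, -0.23 and -0.19. Hairpin 1 was again the highest value of each. MRPS23 followed with -0.065, -0.094 and -0.20 and MRPS27, an RNA-binding protein of the mitochondrial lineage, with -0.014, -0.084 and -0.18. None of these 5 passed, the lowest adjusted p being 0.151 for MRPS30 by limma. The highest after MRPS9 and MRPS25 were MRPS36, with 0.37, 0.032 and 0.16, MRPS17, with 0.37, 0.036 and 0.093, and MRPS18C, with 0.25, 0.13 and 0.12, and here too hairpin 1 was highest. Of the relatives of MRPS18C, MRPS18A had 0.054, 0.050 and -0.014 and MRPS18B had 0.15, 0.25 and 0.033. MRPS18A was below MRPS18C on every array, the values of MRPS18B overlapped those of both, and none of the 3 passed the test. MRPL42, once assigned to the small subunit and now placed in the large one, had 0.18, -0.15 and 0.11, with no common direction.

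By subunit, the median log2 ratio of the 48 large-subunit members was 0.095, 0.011 and -0.026 for hairpins 1, 2 and 3, and that of the 29 small-subunit members was 0.14, 0.050 and 0.033. Over all genes tested the same medians were -0.021, -0.012 and -0.011. The medians of the mean were 0.032 for the large and 0.097 for the small subunit, a gap far inside the range of either set (-0.42 to 0.23 and -0.16 to 0.36). With MRPS18A and MRPS30 counted in the large subunit and MRPS36 left out, the medians were 0.030 over 50 genes and 0.098 over 26. On the Feature Extraction log ratio the order of the subunits turned, at 0.080 for the large and 0.077 for the small, as it did in the deposited table, at 0.080 and 0.067. No test was made between subunits, because genes are not replicates.

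The origin of the proteins was described the same way. Of the 30 large-subunit members with a bacterial homologue 1 rose and none fell, with a median of 0.036. Of the 18 large-subunit members of the mitochondrial lineage 2 fell and none rose, with a median of -0.013. The corresponding small-subunit sets of 15 and 11 genes each had 1 member that rose and none that fell, with medians of 0.097 and 0.099. These counts are too small to be set against one another.

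Brightness was taken into account because the ratios of the brightest genes were shifted on these arrays. The genes tested were divided by their mean brightness into 20 bands of equal number. Of the 77 members 61 lay in the 4 brightest bands and 9 in the brightest, in which the median of all genes was 0.13. In bands 17, 18 and 19, counted from the dimmest, that median was -0.047, -0.034 and -0.021. Against the median of its own band, the large subunit had a median difference of 0.12, 0.043 and -0.0011 for hairpins 1, 2 and 3 and the small subunit one of 0.11, 0.074 and 0.025. For the mean over hairpins the differences were 0.058 and 0.036. The order of the subunits against genes of equal brightness was not settled, since with 10 bands in place of 20 the differences were 0.055 for the large and 0.096 for the small subunit. Without the array of hairpin 1 the difference of the large subunit was 0.030. The 9 members of the brightest band had a median of -0.031 relative to the band. In the 4 brightest bands 2 members fell (3.28%) and 2 rose (3.28%), against 12.2% and 12.1% of all 3412 genes of these bands.

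**Figure D1:**
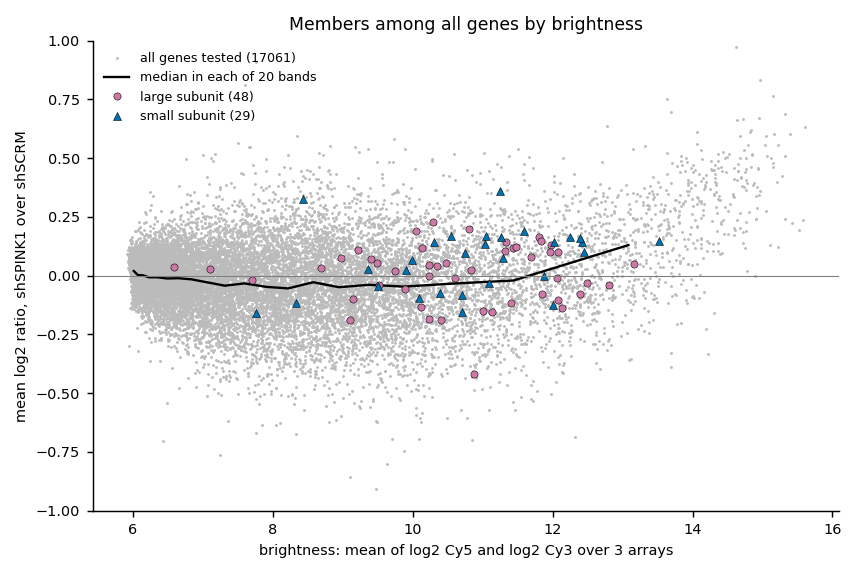
Mean log2 ratio (vertical axis) against brightness, the mean of log2 Cy5 and log2 Cy3 (horizontal axis), for all 17061 genes tested (gray), the 48 large-subunit members (circles) and the 29 small-subunit members (triangles); the line joins the medians of 20 brightness bands, and 2 genes lie outside the vertical range of 1 in either direction. The members lie in the bright part of the array and scatter about the line, which reaches 0.13 in the brightest band.

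The ratios of the members were higher on the array of hairpin 1 than on the others. The ratio for hairpin 1 was above the mean of the ratios for hairpins 2 and 3 in 67 of 77 members (87%), in 42 of 48 large-subunit and 25 of 29 small-subunit members, against 48.6% of all genes tested. The median difference was 0.11 on the log2 scale over the members and -0.0045 over all genes. Hairpin 1 gave the highest of the 3 ratios in 72.7% of members and in 35.7% of all genes, and hairpin 3 gave the lowest in 45 members. Some related lists also had their highest median for hairpin 1. The medians for hairpins 1, 2 and 3 were 0.11, 0.019 and -0.087 over 24 assembly factors of the mitochondrial ribosome. They were 0.11, -0.068 and -0.056 over 16 genes of mitochondrial transcription and DNA maintenance, and 0.12, 0.093 and -0.035 over 16 translation factors. Over 6 subunits with other names they were 0.11, 0.043 and 0.055. Other lists differed: the medians were -0.039, -0.0036 and -0.072 over 20 mitochondrial tRNA synthetases and amidotransferase subunits. Over 85 cytosolic ribosomal protein genes hairpin 1 was lowest, at 0.24, 0.35 and 0.32. Over 79 nuclear genes of oxidative phosphorylation the median differences from genes of equal brightness were 0.12, 0.022 and 0.027, against 0.12, 0.057 and 0.0029 over the members. With 1 array for hairpin 1 there is no replicate of this difference, and it was not tested. It was present on the Feature Extraction log ratio (85.7% of members, 47.9% of all genes), without background correction (85.7% and 47.6%) and in the deposited table (85.7% and 48.5%). With median centring all genes moved as well (100% of members, 64% of all genes). The median differences were then 0.256 over the members and 0.054 over all genes. The array of hairpin 1 also had more gene spots well above background in Cy5 (46.8%, against 41.3% on both others), and the part of this in the difference was not tested.

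**Figure D2:**
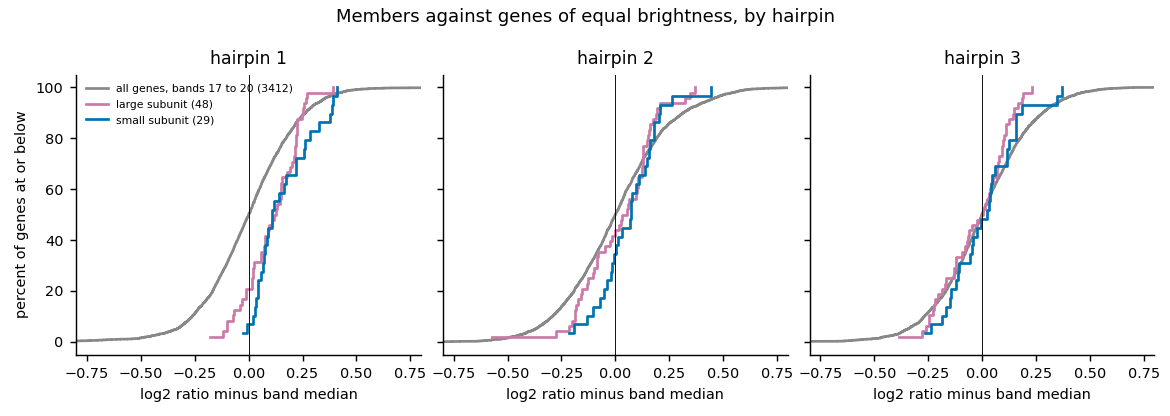
Cumulative percent of genes (vertical axis) at or below a given log2 ratio minus the median of the gene's brightness band (horizontal axis), by hairpin, for all 3412 genes of the 4 brightest bands (gray) and for the large (pink) and small (blue) subunit. For hairpin 1 both subunits lie to the right of the gray curve at their medians of 0.12 and 0.11. For hairpin 3 their medians lie close to that of the gray curve, at -0.0011 and 0.025. The subunit curves also hold members of dimmer bands.

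Counts of calls turned on single arrays. Without the array of hairpin 1, 10 members fell and 4 rose by limma at the same threshold, among 11.3% and 7.28% of all genes. The 10 were MRPL11, MRPL23, MRPL30, MRPL33, MRPL49, MRPL50, MRPL52, MRPS12, MRPS2 and MRPS30, and the 4 were MRPL22, MRPL48, MRPS25 and MRPS9. The medians were then 0.0039 for the large and 0.065 for the small subunit. Without hairpin 2 the calls were MRPL49 lower and MRPS25 and MRPS9 higher (3.58% and 2.53% of all genes), and without hairpin 3 MRPS9 alone was called (1.7% and 1.03%). MRPS9 was thus called with any of the arrays left out, at adjusted p from 0.00317 to 0.0467.

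The technical spread was read from repeated spots and from genes with several probes. Besides MRPL22, the probes of MRPS15, MRPS23 and MRPS6 are printed 10 times, and the SD among spots of 1 array was between 0.034 and 0.085 for the 4 genes. MRPS6, a homologue of a bacterial small-subunit protein, had means over its spots of 0.18, 0.11 and -0.0028 for hairpins 1, 2 and 3. The spots of MRPS15 averaged -0.0091, -0.057 and -0.15. Those of MRPS23 averaged -0.065, -0.094 and -0.20. In all 3 genes the mean fell in the order of hairpins 1, 2 and 3, while the ranges of the spots of neighboring hairpins overlapped. Spots share their RNA and are not replicates of the knockdown.

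**Figure D3:**
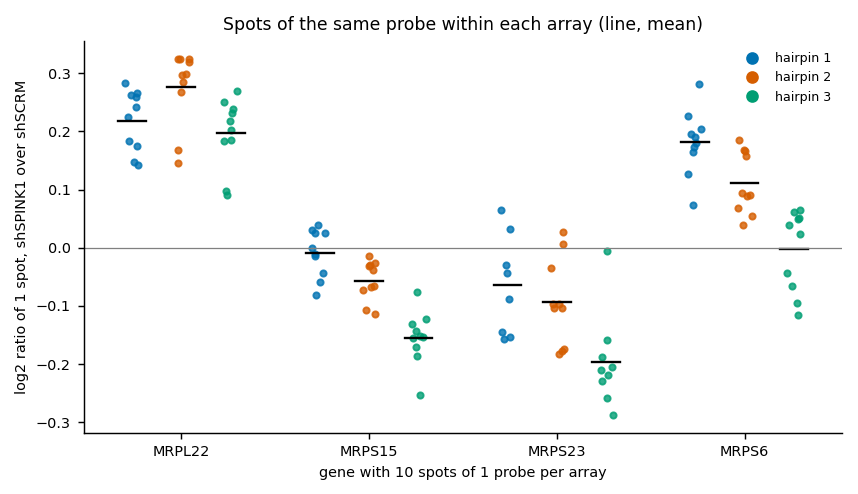
Log2 ratio of single spots (vertical axis) for the 4 members whose probe is printed 10 times per array, by hairpin, with a line at the mean; spots marked as outliers are left out. Every spot of MRPL22 lies above 0, and within MRPS15, MRPS23 and MRPS6 the mean is highest for hairpin 1 and lowest for hairpin 3.

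Of 17 members with more than 1 probe, 14 had at least 2 that were well above background. The means of their probes differed by a median of 0.11, within 0.1 in 7 genes, and had opposite signs in 4. MRPS5, a homologue of a bacterial protein near the mRNA entry, was the 1 gene with a difference over 0.3. Its brightest probe gave 0.12, 0.21 and 0.14, a mean of 0.16 (SD 0.049, n = 3), and its second probe, printed above with it, gave -0.13, -0.30 and -0.31, a mean of -0.25 (SD 0.104, n = 3). The values of the 2 probes did not overlap and had opposite signs on every array, so MRPS5 has no settled direction here. The second probe was dimmer, between 195 and 286 in Cy5 against 4490 to 5570 for the first. The probes of MRPS16 came next, with means of -0.0030 and -0.30. In MRPL52, the 1 gene of these that passed the test, the means of both probes lay within 0.02 of each other. Single arrays differed more, with -0.23 and -0.31 for hairpin 2.

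Beyond the members, the other nuclear genes of mitochondrial translation were described from 5 lists. Of 82 genes measured 2 fell (2.44%) and 5 rose (6.1%), against 8.72% and 4.77% of all genes. Of 6 subunits of the ribosome that bear other names, ICT1 (now MRPL58), a peptidyl-tRNA hydrolase within the large subunit, rose, with 0.45, 0.47 and 0.30, a mean of 0.41 (limma, adjusted p = 0.00814). Of 16 translation factors C12orf65 (now MTRFR), a relative of release factors that acts in ribosome rescue, rose, with 0.52, 0.52 and 0.41, a mean of 0.48 (limma, adjusted p = 0.00618). ICT1 and C12orf65 were thus both higher than any member.

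Among 24 assembly factors 2 fell (8.33%) and 3 rose (12.5%), against 8.72% and 4.77% of all genes, so the share that fell was that of the background. MALSU1, which binds the large subunit during assembly, had -0.11, -0.42 and -0.49, a mean of -0.34 (limma, adjusted p = 0.0327). WBSCR16 (now RCC1L), an assembly factor of the same subunit, had -0.27, -0.25 and -0.18, a mean of -0.23 (limma, adjusted p = 0.0262). The 3 that rose are methyltransferases that act on the ribosome's RNA or on its assembly: RNMTL1 (now MRM3) had 0.40, 0.38 and 0.15, METTL15 had 0.28, 0.25 and 0.20, and NSUN4 had 0.13, 0.30 and 0.24, with adjusted p of 0.0236, 0.0225 and 0.0379 by limma. The rise was not shared by the whole class. TFB1M, MRM1, FTSJ2 (now MRM2) and METTL17, methyltransferases or their relatives on the same list, had means of 0.12, 0.023, 0.0047 and 0.016 and did not pass. None of 20 mitochondrial tRNA synthetases and amidotransferase subunits and none of 16 genes of mitochondrial transcription and DNA maintenance passed.

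Larger families that the members are usually read beside had higher ratios in the same fit. Of 85 cytosolic ribosomal protein genes 55 rose (64.7%) and 1 fell (1.18%), against 4.77% and 8.72% of all genes and 30.4% and 4.81% of the brightest band, with a median of 0.29, and the median against genes of equal brightness was 0.16. Of 79 nuclear genes of oxidative phosphorylation 21 rose (26.6%) and 5 fell (6.33%), with medians of 0.13 and 0.076. The members, at 3 higher and 2 lower of 77 and medians of 0.040 and 0.058, had a smaller share that rose and lower medians than both. Against genes of equal brightness the order of members and oxidative phosphorylation genes differed by hairpin. It was 0.12 and 0.12 for hairpin 1, 0.057 and 0.022 for hairpin 2, and 0.0029 and 0.027 for hairpin 3. These families share arrays and controls with the members, and their difference was not tested.

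The promoters are described as a feature that the choice by name did not use. RefSeq (GRCh38.p14) gave 84 promoters of 300 bases, 250 before and 50 after the start, for 68 members, and both strands were searched. The motif of YY1, a factor known to act on genes of mitochondria and ribosomes, was searched as the letters shown in capitals below and was present in 13 members (19.1%), against 1.46% of 27305 genes with a promoter and 3.2% of the 9962 of them that were tested. In 10 of the 13 it lay after the start on the strand of the gene, between bases 7 and 36. The letters ccggaag, the core of ETS factor sites, were present in 29 members (42.6%), against 12.2% and 21.5%, in 24 of them within 50 bases of the start. The letters cgcatgcg, the core of the site of the respiratory activator NRF1, were in 3 members (4.41%), against 2.46% and 4.38%. The GC box, gggcgg, was present in 60.3% of members, 48.3% of all genes and 75.3% of those tested, ccaat in 33.8%, 39.7% and 43.2%, and tataaa in 4.41%, 14% and 8.55%. Matches of different motifs overlapped in 1 promoter, that of MRPL53, by 1 base between ccggaag and gggcgg. A match is a stretch of letters and not a site shown to be bound.

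The matches of 5 members are shown with the sequence around them, the letters of the YY1 motif in capitals, to set the called members beside others with the same letters.
MRPL22 (chr5:154941093-154941122, plus strand): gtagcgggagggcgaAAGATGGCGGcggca
MRPL52 (chr14:22829779-22829808, plus strand): acgatgacccAAGATGGCGGagccgtgatt
MRPL42 (chr12:93467512-93467541, plus strand): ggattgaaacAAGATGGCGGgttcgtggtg
MRPS18B (chr6:30617853-30617882, plus strand): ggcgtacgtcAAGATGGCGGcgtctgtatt
MRPS30 (chr5:44808950-44808979, plus strand): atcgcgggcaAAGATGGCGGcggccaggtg
The letters were the same while the ratios were not: MRPL22 rose, MRPL52 fell and the others did not pass. In MRPL52 the match began at position -98 from the start, and in the other 4 between positions 9 and 36. The 13 members with the letters had means from -0.19 to 0.23 with a median of 0.070, and the 55 without them a median of 0.030. For the ETS core the medians were 0.056 with and 0.041 without it.

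The 250 bases before the start are given for the same 2 called members, one that rose and one that fell; the capitals mark the NRF1 core in MRPL22, whose YY1 letters lie after the start and outside this stretch, and the YY1 letters in MRPL52.
MRPL22 (chr5:154940823-154941072, plus strand): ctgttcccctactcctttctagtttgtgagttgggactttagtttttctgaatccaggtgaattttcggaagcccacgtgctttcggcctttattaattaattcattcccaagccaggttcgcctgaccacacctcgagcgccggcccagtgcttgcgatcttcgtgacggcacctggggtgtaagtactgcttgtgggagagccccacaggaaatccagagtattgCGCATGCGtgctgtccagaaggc
MRPL52 (chr14:22829637-22829886, plus strand): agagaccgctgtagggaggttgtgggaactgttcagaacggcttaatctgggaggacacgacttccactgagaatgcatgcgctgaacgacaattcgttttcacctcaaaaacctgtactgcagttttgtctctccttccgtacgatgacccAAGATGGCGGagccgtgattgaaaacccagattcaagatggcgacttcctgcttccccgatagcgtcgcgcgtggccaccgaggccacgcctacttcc
The MRPL22 match began at position -23. The MRPL52 promoter also holds the letters ccggaag on the opposite strand, from position -5. The end of the stretch cuts them, so they are not marked. No promoter was read for MRPL10, MRPL13, MRPL15, MRPL2, MRPL21, MRPL23, MRPL35, MRPS28 or MRPS36.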

How the data were processed

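Expression in 22RV1-shSPINK1 (3 hairpins, Cy5) was read relative to 22RV1-shSCRM (Cy3) on 3 Agilent arrays. The authors deposited the intensity of each spot and of its local background, not normalized, with a log10 ratio from Feature Extraction, and a table of log2 values per gene name. That table lay within 0.02 of log2 of the processed Cy5 over Cy3 signals for 79.7% to 80.9% of the genes tested, taken from the brightest probe. Per the labels, poly(A) tails were added to total RNA before labelling. For the arrays, the methods state Lowess normalization and Benjamini-Hochberg adjustment, and their array section names no test.

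Intensities were corrected with normexp (offset 50), normalized by loess within each array and averaged over the spots of a probe, with control spots and outlier flags (0.203% of values) left out, in R 4.3.3 with limma 3.58.1. A probe was kept when well above background in Cy5, or in Cy3, on all 3 arrays (21443 of 58201), and the brightest kept probe stood for its gene. The mean log2 ratio was tested against 0 by limma's moderated test over 17061 genes. The offset draws the ratios of dim genes toward 0. On simulated data for 17061 genes, a log2 change of 1 given to 200 genes was recovered in 99.5% of these, and 19 unchanged genes were called; changes as small as those of the members were not simulated. The number of arrays limits the precision. No 2 arrays held the same values (at most 0.0345% of gene spots identical). Members' probes had a median GC content of 45%, against 43.3% over all genes tested.

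Of the member symbols 76 were in RefSeq and 1 was a synonym. The members and the lists were chosen with earlier results of these data known. Values per hairpin were given for members past the threshold, the 5 lowest and 5 highest of each subunit, members whose probes differed by over 0.3, members whose name and place differ, and genes past the threshold in the other lists. Alternatives covered the background correction, normalization, source of values, filter, probe rule, test, band width, subunit by structure and each array left out. Figures were drawn with matplotlib 3.10.9.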

Additional observations from a re-analysis of the deposited data

How the results depend on the processing

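The log2 ratio of SPINK1 was between -4.09 (median centring) and -3.68 under the settings run, and lost its call only with a one-sample t-test with Benjamini-Hochberg adjustment (-3.75, adjusted p = 0.137). The members that fell and rose, 2 and 3 in the report, were 1 and 3 without background correction, 3 and 5 without the filter on dim probes, 3 and 3 with the mean of all probes, 61 and 0 with median centring, and 0 and 0 with the Feature Extraction log ratio, the deposited table and the t-test (12, 12 and 13 members at an unadjusted p under 0.05). With an array left out they were between 0 and 10 and between 1 and 4, as given by array in the report. Over all genes the calls, 1487 lower and 814 higher, became 10339 and 91 with median centring, 3 and 0 with the Feature Extraction log ratio and with the deposited table (4092 and 3837 genes at an unadjusted p under 0.05), 0 and 0 with the t-test (3020 genes), and between 290 and 1936 lower and 176 and 1242 higher with an array left out. The cause was not tested.

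The other mitochondrial translation genes, 2 lower and 5 higher, gave 1 lower without background correction and without the filter, 3 higher with the mean of all probes, 57 and 0 with median centring, 0 and 0 with the Feature Extraction log ratio, the deposited table and the t-test, and between 0 and 9 lower and 2 and 8 higher with an array left out.

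Median centring moved the median of all genes to -0.229 and those of the subunits to -0.307 (large) and -0.253 (small), and turned the direction of 13 of 24 named members: MRPL20 (-0.174), MRPL21 (-0.192), MRPL22 (-0.123), MRPL42 (-0.308), MRPL43 (-0.164), MRPL48 (-0.152), MRPS17 (-0.179), MRPS18A (-0.322), MRPS18B (-0.185), MRPS18C (-0.185), MRPS25 (-0.00449), MRPS36 (-0.151) and MRPS5 (-0.172). MRPS9 lost its call there (0.0171, adjusted p = 0.826). MRPS5 also turned in the deposited table (-0.0467) and with the mean of its probes (-0.0445), and MRPL42 without the array of hairpin 1 (between -0.0189 and 0.143 with an array left out). The median of the large subunit, 0.032, was 0.0804 with the Feature Extraction log ratio and 0.08 in the deposited table, and that of the small subunit was 0.0768 and 0.0667. The large subunit's median difference from genes of equal brightness, 0.058, was between 0.0299 and 0.0837 with an array left out. The small subunit's median difference from genes of equal brightness, 0.036, was 0.0863 with the Feature Extraction log ratio, 0.0799 without the filter, 0.0962 with 10 bands, and between 0.0328 and 0.0849 with an array left out.

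The main test was already paired by array, since each ratio sets both groups of 1 array against each other. No further pairing was possible, because each hairpin has 1 array. Slide and scan were not run as a block, since the files give 1 of each. The absence of a dye swap, the single array per hairpin and the unknown spread of the control limit every value.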
